A study of Danio rerio with 18 samples.

Results

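The LPS effect described here is the mean of 3 effects, each of them LPS-challenged against control zebrafish larvae of one temperature group, and it rests on all 18 libraries of the series, 9 LPS and 9 control. The groups, of 3 libraries each, were LPS and control larvae of 3 combinations of incubation and challenge temperature, which were 24 °C throughout (24 × 24 °C), 24 °C until first feeding and then 32 °C (24 × 32 °C), and 32 °C until first feeding and then 24 °C (32 × 24 °C). By the study's methods the larvae had reached the second temperature before LPS was given. All were unfed whole larvae of the AB wild-type strain around first feeding, all were held for 24 h with LPS of Pseudomonas aeruginosa or with the PBS carrier alone, and by the study's methods each library was made from a pool of 5 larvae. The larvae incubated at 32 °C were younger in hours, so age and incubation temperature cannot be told apart, and the LPS pools hold the larvae that had survived a challenge with very unequal mortality among the temperature groups. The methods say that the experiment was repeated with newly drawn parents, but neither they nor the labels tie a library number to a repeat, so the p values measure the spread between these pools.

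LPS, or lipopolysaccharide, coats Gram-negative bacteria. In vertebrates it can start NF-kB and AP-1 signalling, which switches on inflammatory cytokines, chemokines and proteases, although zebrafish Toll-like receptor 4 does not sense it as the mammalian receptor does. Waterborne LPS first meets the larval skin, a thin epithelium of periderm over basal keratinocytes in which mucous cells and ionocytes lie.

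The libraries held 1868228 to 6679159 counts in LPS larvae and 2351330 to 8261920 counts in control larvae, with medians of 2390260 and 2897261. Of 31624 genes, 15722 passed the filter on low counts and were fitted together with edgeR's quasi-likelihood test. A gene was called up- or down-regulated when the mean of its 3 log2 LPS effects was at least 1.5-fold and its p, adjusted after Benjamini and Hochberg, was under 0.05. Values per library are CPM, counts scaled to library size by TMM normalisation. Effects are given as log2 of LPS over control ± SE, and every adjusted p comes from this edgeR fit. The SE is the size of the effect divided by the square root of its F statistic. In bulk samples, fewer cells of a type and less RNA per cell cannot be told apart. Several libraries stood apart for the called genes, in both directions, although these genes were called with the same libraries. At 32 × 24 °C, LPS library 1 was the lowest of its 3 for 84.3% of the up-regulated genes, against 39.9% of all genes tested, and control library 1 was the lowest of its 3 for 81.2% of the down-regulated genes, against 40.1% of all genes, and for 70% of the up-regulated ones. LPS library 2 at 32 × 24 °C was the highest of its 3 for 80.1% of the up-regulated genes, against 34.7% of all genes, and LPS library 3 at 24 × 32 °C for 75.7%, against 35.7%. Counts of calls over all genes are also given without these libraries, and counts of lists without both libraries numbered 1 of the 32 × 24 °C group where a count moved by over 1.5 times. Counts of list members with an unadjusted p under 0.05 are given without the share of all genes at that p. They do not show whether a list stands out from all genes.

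LPS up-regulated 267 genes on average over the temperature groups, 1.7% of the genes tested, and down-regulated 128 genes, 0.814%. These shares are the background for every count of called list members below. Of the 33 gene lists, the epidermal barrier and wound genes held the most up-regulated genes, with 28 of 46 tested. That list had the most genes tested, and the lists were written with earlier results of these data known. CGAS, arf4b and scpp8 had the largest mean effects upwards, and si:ch211-219a15.4, an unnamed gene, and the gel-forming mucin gene muc5.2 the largest downwards. The same sign stood in all 3 temperature groups for 262 of the 267 and for 122 of the 128 genes, against 16.6% of all genes positive and 16.4% negative throughout. Of these, 125 genes were past 1.5-fold upwards in each of the 3 groups (0.795% of all genes) and 66 downwards (0.42%), and these are the genes called consistent here. In 69 of the up-regulated genes every LPS library lay above every control library of its own temperature group in all 3 groups, a pattern that 0.566% of all genes showed. The reverse held for 34 of the down-regulated genes, against 0.267% of all genes. As the genes were called on the mean of these same 3 effects, shared signs and separated libraries follow in part from the call. These counts are therefore a description. Without both libraries numbered 1 at 32 × 24 °C, 343 genes were up- and 195 down-regulated on average. Without LPS library 2 at 32 × 24 °C the numbers were 208 and 106, with 82 and 56 consistent ones, and without LPS library 3 at 24 × 32 °C they were 235 and 118.

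Many of these changes passed the test in no single temperature group. Single groups were tested within the joint fit, which takes 1 spread per gene from all 18 libraries. In a separate fit of the 6 libraries at 24 × 24 °C, 59 of 120 genes called up from the other groups passed. Median depth was 5689632 (LPS) and 6684396 (control) counts at 24 × 24 °C, against 2297231 to 2891453 in the other groups. The counts of single groups therefore depend on the fit, and they do not rank the responses of the groups. Of the 267 up-regulated genes, 142 were called in no single group, 105 in 1 group, 19 in 2 groups and 1 in all 3, and of the 128 down-regulated genes the numbers were 71, 48, 8 and 1. The effects of single groups called 37 genes up (0.235%) and 30 down (0.191%) at 24 × 24 °C, 214 (1.36%) and 93 (0.592%) at 24 × 32 °C, and 3 (0.0191%) and 2 (0.0127%) at 32 × 24 °C. The size of the response was uneven: the 267 up-regulated genes had median effects of 0.79, 1.27 and 0.81 in the 24 × 24, 24 × 32 and 32 × 24 °C groups. For 176 of the 267 the effect at 24 × 32 °C was the largest of the 3 in size. The same was true of 8054 of all 15722 genes tested, so much of that lead was not particular to the called genes. The medians of the 128 down-regulated genes were -1.19, -1.18 and -0.85 in the same order. The test of whether the 3 effects of a gene differ called 0 genes with edgeR, although 1009 genes (6.42%) had an unadjusted p under 0.05. DESeq2 called 38 genes in that test and limma-voom 16, so the absence of calls depended on the tool.

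**Figure D1:**
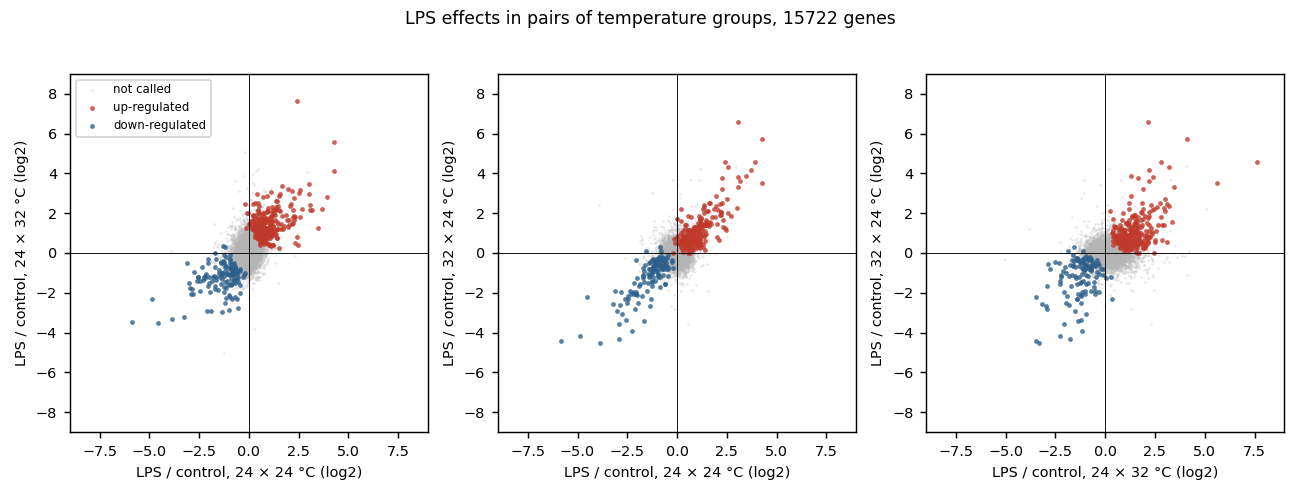
Each point is 1 of 15722 genes, placed by its log2 LPS effect (LPS over control) in 2 temperature groups, for the 3 pairs of groups. Genes up-regulated on average (red, 267) lie mostly in the upper right and genes down-regulated on average (blue, 128) mostly in the lower left of all 3 panels, and genes not called (grey) centre on 0.

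The effects can be read in larvae that took no part in a call, since no library is shared between temperature groups. Genes were called on the 12 libraries of 2 groups and then read in a separate fit of the 6 libraries of the third. Of 120 genes called up without the 24 × 24 °C larvae and measured there, 113 were also higher with LPS in them (94.2%, against 51.4% of all genes measured), and 59 passed the test there. All 33 such down-regulated genes were also lower, and 16 passed. At 24 × 32 °C, 76 of 78 up-regulated genes had the same direction and 25 passed, as did 34 of 36 down-regulated genes, of which 12 passed. At 32 × 24 °C, 282 of 316 up-regulated (89.2%) and 115 of 139 down-regulated genes (82.7%) had the same direction, but 3 and 0 of them passed the edgeR test in those 6 libraries. In the same direction, 92 and 34 of them had an unadjusted p under 0.05, given without the share of all genes at that p. The median effect there was 0.53 for the up-regulated and -0.37 for the down-regulated genes, over other genes than those read in the other 2 groups. Across all genes, the effects correlated between groups at Pearson's r of 0.396 (24 × 24 and 24 × 32 °C), 0.427 (24 × 24 and 32 × 24 °C) and 0.256 (24 × 32 and 32 × 24 °C), over 15722 genes that are not independent replicates.

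**Figure D2:**
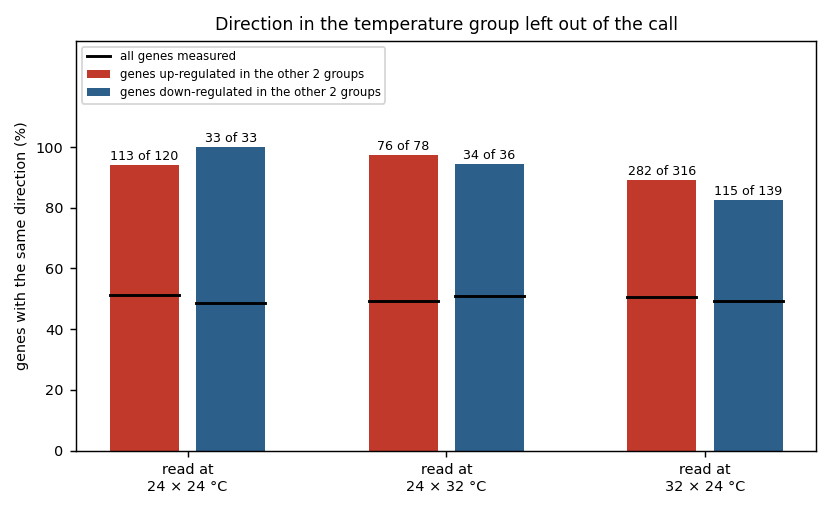
Bars give the share of genes, called from the other 2 temperature groups, that had the same direction of LPS effect in the group named below, for up-regulated (red) and down-regulated (blue) genes, with the numbers above each bar. Black lines mark the share of all genes measured with that direction, which lay between 48.6% and 51.4%, whereas the bars reached 82.7% to 100%.

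Only 18 of the 40 matched cytokine and chemokine genes passed the filter on low counts. Of the 18 cytokine and chemokine genes tested, 3 rose and 1 fell, where 1.7% and 0.814% of all genes did. The median of the list was -0.01, beside -0.003 for all genes. That median covers moves in both directions, as 6 of the 18 were positive and 5 negative in all 3 groups. Of all genes, 16.6% were positive and 16.4% negative in all 3. An unadjusted p under 0.05 was found for 10 of them, and DESeq2 called 4 and limma-voom 5. il1b, which encodes the fever cytokine interleukin 1 beta, had 34.6, 39.2 and 28.2 CPM in LPS larvae against 4.62, 3.88 and 3.17 CPM in control larvae at 24 × 24 °C. At 24 × 32 °C it had 6.39, 2.69 and 27.8 CPM with LPS against 2.24, 3.84 and 1.92 CPM in controls, and at 32 × 24 °C 16.8, 12.6 and 5.95 CPM against 0, 1.14 and 2.01 CPM. The LPS and control libraries overlapped only at 24 × 32 °C, and the mean effect was 2.98 ± 0.42 (adjusted p = 0.00081). The neutrophil-attracting chemokine cxcl8b.1 rose, past 1.5-fold in all 3 groups, to 3.46 to 30.5 CPM in LPS larvae (median 9.35) against 0 to 6.11 CPM in controls (median 1.44), by 3.09 ± 0.40. Its relative cxcl8a rose by 1.33 ± 0.31, mostly through the 24 × 24 °C larvae (2.44 ± 0.45), and its call was lost without LPS library 2 at 24 × 24 °C (adjusted p = 0.0503) or LPS library 3 at 24 × 32 °C (adjusted p = 0.118). The chemokine gene ccl20a.3 fell, past 1.5-fold in all 3 groups, to 0 to 3.97 CPM in LPS larvae (median 1.74) against 1.15 to 12.3 CPM in controls (median 8.15). Without both libraries numbered 1 at 32 × 24 °C, 4 of 21 cytokine and chemokine genes rose and 2 fell.

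Receptors and feedback inhibitors of cytokines moved more evenly. Of 20 tested, 7 rose and 0 fell, where 1.7% and 0.814% of all genes did. Of the 7, 5 were past 1.5-fold in every temperature group, and the list median was 0.37. The LIF receptor gene lifrb had 6.44 to 19.8 CPM in LPS larvae (median 14.5) against 1.54 to 6.82 CPM in controls (median 4.43), a mean effect of 1.70 ± 0.20 (adjusted p = 4.8e-05), and the LPS libraries lay above the controls within each group. The gene of its co-receptor gp130, il6st, rose by 0.78 ± 0.13 and nearly alike in the 3 groups (0.78, 0.84 and 0.73). The decoy receptor gene tnfrsf11b rose by 1.56 ± 0.27, the interleukin 4 receptor gene il4r.1 by 1.22 ± 0.25 and the TNF receptor gene tnfrsf1a by 0.86 ± 0.16. socs3b, whose product damps JAK-STAT signalling, rose by 0.79 ± 0.16, with its smallest effect at 24 × 32 °C (0.38 ± 0.29).

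Of the list of Toll-like receptors, adaptors and NF-kB, 39 genes were matched and 19 passed the filter on low counts. The list also holds NOD and scavenger receptor genes and is not limited to sensors of LPS. These 19 Toll-like receptor, adaptor and NF-kB genes had a median of 0.0061, and 3 had an unadjusted p under 0.05. Of the 19, 1 rose and 0 fell, where 1.7% and 0.814% of all genes did. The one, RIPK2, the kinase of the NOD receptors, rose by 1.07 ± 0.28 (adjusted p = 0.032), but its call was lost in 8 of the 18 fits that left out 1 library, with adjusted p up to 0.0909, and without both libraries numbered 1 at 32 × 24 °C (adjusted p = 0.0564), where 0 of the 19 were called. Downstream, 10 of 32 AP-1, Egr, C/EBP and immediate early genes rose and 0 fell, beside 1.7% and 0.814% of all genes. The median of this list was 0.30. fosl1a, an AP-1 subunit of the Fos family that is induced at wound edges, had 9.02 to 63.5 CPM in LPS larvae (median 31.5) against 1.72 to 11.2 CPM in controls (median 6.71), and rose by 2.46 ± 0.29 (adjusted p = 0.00014). The C/EBP gene cebpb rose by 1.37 ± 0.26, the AP-1 gene junba by 0.90 ± 0.13 and the immediate early gene ier2a by 0.95 ± 0.20.

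Matrix proteases and their inhibitors gave some of the largest changes. Of 20 genes of metallopeptidases, the plasminogen system and inhibitors, 7 rose and 0 fell, while the list median was 0.034. mmp9, the gene of gelatinase B, had 118, 237 and 233 CPM in LPS larvae against 15.2, 38.3 and 45.1 CPM in controls at 24 × 24 °C, 72.6, 27.3 and 84.2 CPM against 9.33, 3.84 and 6.71 CPM at 24 × 32 °C, and 46, 102 and 79.9 CPM against 4.3, 2.66 and 4.42 CPM at 32 × 24 °C. The groups did not overlap at any temperature combination, the control level was highest at 24 × 24 °C, and the mean effect was 3.35 ± 0.33 (adjusted p = 7.8e-05). The collagenase gene mmp13a had 6.53 to 91.3 CPM in LPS larvae (median 57) against 0.959 to 6.7 CPM in controls (median 2.69), with effects of 3.92, 2.81 and 4.59 in the 3 groups. timp2b, the gene of an inhibitor of metallopeptidases, rose by 2.73 ± 0.40. It overlapped between LPS and control larvae only at 32 × 24 °C, where LPS library 1 had 15 CPM and control library 3 had 15.3 CPM.

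Eicosanoid genes moved in both directions, 2 of 12 up and 1 down. ptgs2b, a zebrafish cyclooxygenase 2 gene of the first step of prostaglandin synthesis, had 11.9 to 78.9 CPM in LPS larvae (median 43) against 1.54 to 8.35 CPM in controls (median 4.48), so that all 9 LPS libraries lay above all 9 controls, and rose by 3.27 ± 0.38 (adjusted p = 0.00023). Its effects in the 3 groups were 3.04, 3.45 and 3.33. ptgis, the prostacyclin synthase gene, rose by 1.48 ± 0.29. ptgdsb.1, a gene of a lipocalin-type prostaglandin D synthase, fell, with a mean effect of -0.98 ± 0.09 (adjusted p = 4.7e-06). It had 277, 290 and 261 CPM in LPS larvae against 583, 624 and 701 CPM in controls at 24 × 24 °C, and 151, 181 and 155 CPM against 405, 410 and 506 CPM at 24 × 32 °C, but 332, 295 and 370 CPM against 302, 448 and 478 CPM at 32 × 24 °C, where the libraries overlapped.

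**Figure D3:**
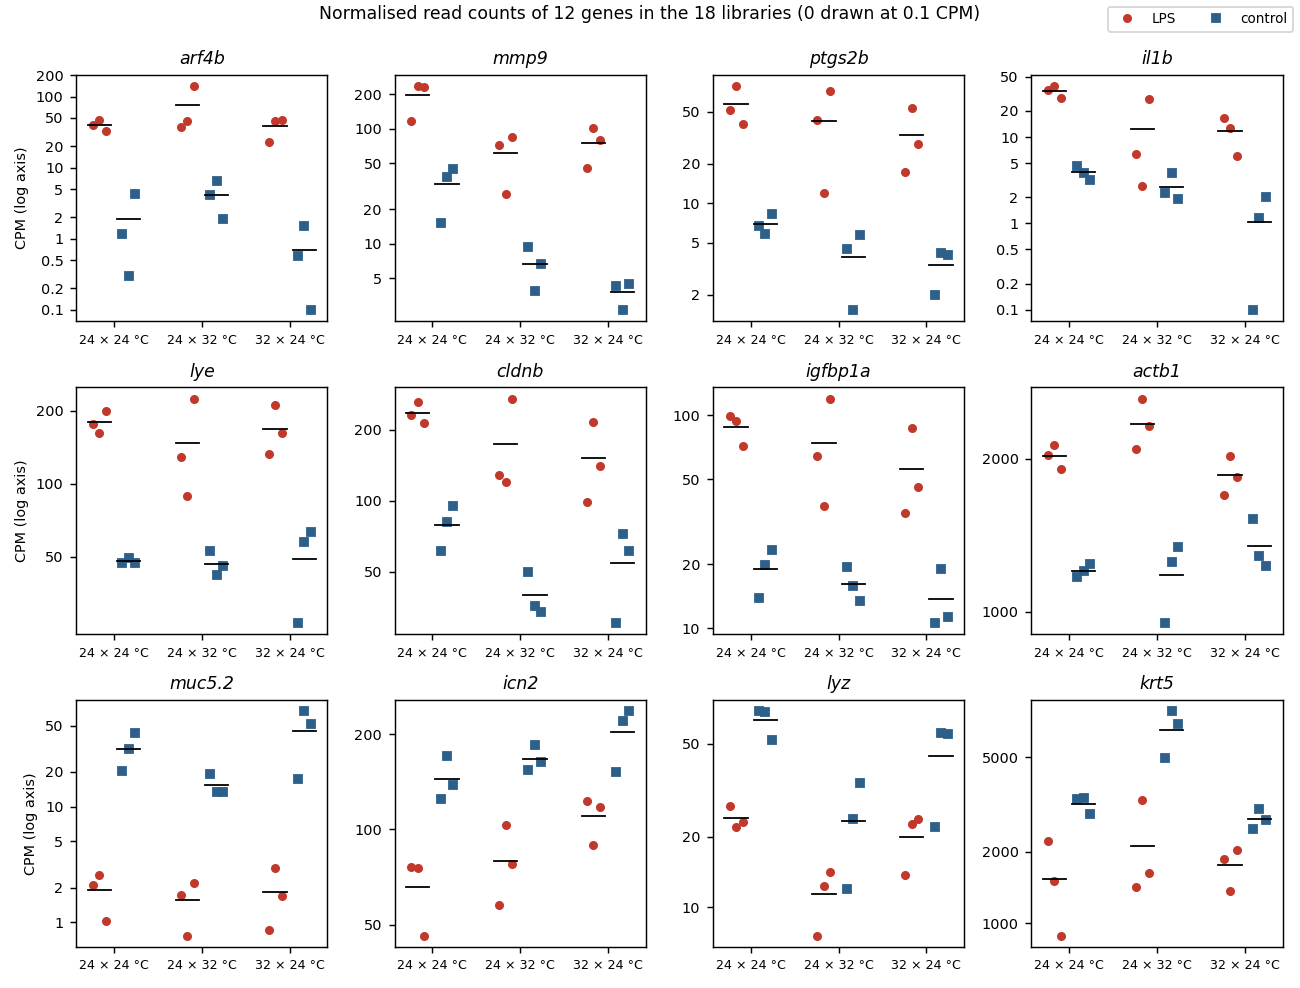
CPM on a log axis of 12 genes in each of the 18 libraries, with LPS libraries (red circles) left of control libraries (blue squares) within each temperature group, black bars at the group means of 3 libraries, and a value of 0 drawn at the bottom of the axis. In the upper 2 rows the LPS libraries lie higher and in the bottom row lower than the controls of the same group, with overlaps for il1b at 24 × 32 °C and for lyz at 24 × 32 and 32 × 24 °C.

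The largest single effects came from genes of varied function. arf4b, a gene of the small GTPases of Golgi traffic, had 39.9, 46.2 and 32.9 CPM in LPS larvae against 1.15, 0.298 and 4.23 CPM in controls at 24 × 24 °C, 37.8, 45.4 and 142 CPM against 4.11, 6.53 and 1.92 CPM at 24 × 32 °C, and 22.8, 44.8 and 46.3 CPM against 0.573, 1.52 and 0 CPM at 32 × 24 °C. All 9 LPS libraries lay above all 9 controls, and the mean effect was 4.69 ± 0.45 (25.8-fold, adjusted p = 6.9e-05). scpp8, of the family of secretory calcium-binding phosphoproteins that also holds enamel and bone proteins, had 1.7 to 39.2 CPM in LPS larvae (median 11) against 0.287 to 1.15 CPM in controls (median 0.48), again without overlap, and rose by 4.47 ± 0.47. CGAS had the largest fitted effect, 4.87 ± 1.09. It depends on the default prior count of the edgeR fit, because 7 of the 9 control libraries held no count. CGAS had 0.43 to 12.3 CPM in LPS larvae (median 6.39) and at most 3.06 CPM in controls. Its call was lost without LPS library 3 at 24 × 32 °C, LPS library 2 at 32 × 24 °C or any 1 of the 3 controls at 32 × 24 °C (adjusted p = 0.0549 to 0.0962). The unnamed genes si:dkey-1k23.3 and CR762483.1 rose by 2.88 ± 0.48 and 2.74 ± 0.32, the cytochrome P450 gene cyp2k18 by 2.5 ± 0.27, and igfbp1a, whose product binds insulin-like growth factors and which is induced by hypoxia and fasting, by 2.15 ± 0.24. igfbp1a stood at 34.8 to 120 CPM in LPS larvae (median 71.9) against 10.6 to 23.3 CPM in controls (median 15.7), without overlap.

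Epidermal barrier and wound genes formed the broadest block of the response. Of 46 tested, 28 rose and 0 fell, 23 of them past 1.5-fold in every temperature group, and the median effect of the list was 0.88, beside -0.003 for all genes. The list medians were 0.87 at 24 × 24 °C, 1.06 at 24 × 32 °C and 0.75 at 32 × 24 °C. In all 3 groups, 34 of the 46 genes were positive, against 16.6% of all genes. Without both libraries numbered 1 at 32 × 24 °C, 28 of 46 rose as well, 22 of them past 1.5-fold in every group. As the lists were written with earlier results of these data known, these counts are a description of the list.

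The barrier genes that rose belong to several parts of an epithelial seal. RNA of whole larvae does not show in which tissue they rose. tgm5l and tgm1 encode transglutaminases, enzymes that in mammals cross-link the cornified envelope. tgm5l had 1.72 to 26.2 CPM in LPS larvae (median 6.68) against 0 to 1.92 CPM in controls (median 0.895) and rose by 3.36 ± 0.55, and tgm1 rose by 2.02 ± 0.37. Genes of lipid enzymes rose too. The ceramidase gene acer1 rose by 2.2 ± 0.26, and elovl1a, an elongase gene for very long-chain fatty acids, by 1.83 ± 0.31. Both had their largest effect at 24 × 32 °C (3.37 ± 0.44 and 2.63 ± 0.62). cldnb, a claudin gene of tight junctions, had 98.4 to 271 CPM in LPS larvae (median 214) against 30.4 to 94.9 CPM in controls (median 61.1) and rose by 1.72 ± 0.22, with all 9 LPS libraries above all 9 controls. cdh1, the gene of E-cadherin, rose by 1.1 ± 0.17. lye, a Ly6-family gene of the fish epidermis, had 89.2 to 224 CPM in LPS larvae (median 162) against 26.7 to 63.1 CPM in controls (median 47.1), and its effects were close to each other in the 3 groups, 1.90, 1.66 and 1.79.

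Growth factor genes of the same list also rose. epgn and hbegfa, which encode ligands of the EGF receptor, rose by 1.63 ± 0.22 and 1.31 ± 0.15. hbegfa had a median of 82.6 CPM in LPS larvae against 28.1 CPM in controls, and the highest control, with 43.8 CPM, came from the 24 × 24 °C group, where LPS larvae had 92.3, 93 and 93 CPM. cd44a, the gene of a hyaluronan receptor, rose by 2.19 ± 0.33.

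**Figure D4:**
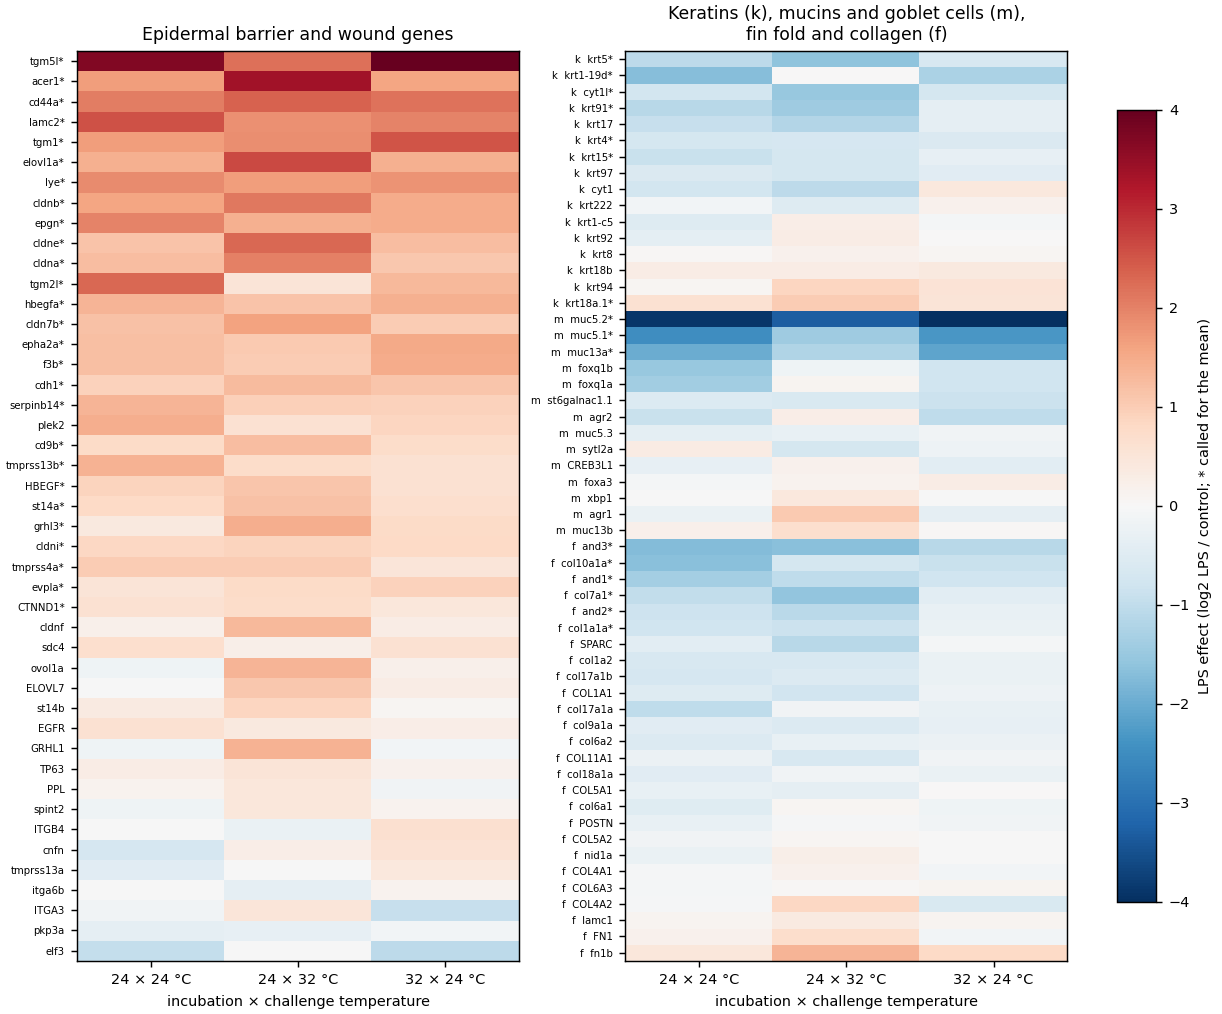
Log2 LPS effects (LPS over control, colour scale from -4 to 4) in the 3 temperature groups for 45 of the 46 tested epidermal barrier and wound genes (left) and for the 16 keratins, 14 mucin and goblet cell genes and 26 fin fold and collagen genes (right), ordered by mean effect within a list, with an asterisk for genes called for the mean. The left panel is red in all 3 columns for most genes, and on the right muc5.2, muc5.1, and3 and most of the called keratins are blue in all 3 columns.

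Annexin and S100 genes and the actin cytoskeleton moved with smaller steps. The annexin and S100 list had 5 genes up and 2 down of 27. anxa2a and s100a10b, whose products form a membrane-bound complex at the cell cortex, rose by 1.63 ± 0.21 and 0.90 ± 0.13. anxa2a had 213, 373 and 244 CPM in LPS larvae against 72.6, 80.5 and 92.8 CPM in controls at 24 × 24 °C, 331, 356 and 566 CPM against 199, 139 and 151 CPM at 24 × 32 °C, and 79, 276 and 172 CPM against 42.1, 58.1 and 53.5 CPM at 32 × 24 °C, with no overlap within a group. icn2, the gene of the fish S100 protein ictacalcin 2, went the other way, with 46.2 to 123 CPM in LPS larvae (median 77.6) against 125 to 236 CPM in controls (median 163), a mean effect of -1.02 ± 0.13 (adjusted p = 9.5e-05).

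Of 28 actin cytoskeleton genes, 7 rose and 0 fell, beside 1.7% and 0.814% of all genes, and the list median was 0.20. actb1, the gene of a cytoplasmic actin, had 1700 to 2630 CPM in LPS larvae (median 2040) against 951 to 1520 CPM in controls (median 1240), without overlap, and rose by 0.73 ± 0.07 (adjusted p = 9.6e-06). arpc5a, a gene of the actin-nucleating Arp2/3 complex, rose by 0.87 ± 0.11, and the actin-binding protein genes cnn2 and tagln2 by 0.83 ± 0.10 and 0.76 ± 0.11.

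Keratin genes fell more often than they rose. Of 16 tested, 1 rose and 6 fell, and the median was -0.51. The summed level of 18 matched keratins was 5269 to 10880 CPM in LPS larvae against 11270 to 14550 CPM in controls at 24 × 24 °C, 9944 to 13870 CPM against 18140 to 24850 CPM at 24 × 32 °C, and 8090 to 11590 CPM against 12520 to 15680 CPM at 32 × 24 °C, with no overlap at any combination. krt5, a keratin gene of the skin, had 2220, 1510 and 887 CPM in LPS larvae against 3330, 3350 and 2870 CPM in controls at 24 × 24 °C, 1420, 3310 and 1630 CPM against 4950, 7780 and 6860 CPM at 24 × 32 °C, and 1870, 1370 and 2030 CPM against 2480, 3030 and 2720 CPM at 32 × 24 °C. Its mean effect was -1.11 ± 0.19 (adjusted p = 0.0049). krt91 also fell (-0.97 ± 0.17), with its smallest effect at 32 × 24 °C (-0.37 ± 0.29), whereas krt18a.1, a keratin gene of simple epithelia, rose by 0.71 ± 0.12.

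Mucins gave the clearest loss. Of 14 mucin and goblet cell genes, 0 rose and 3 fell, all 3 past 1.5-fold in every temperature group, and the median was -0.40. muc5.2, a gene of a gel-forming mucin, had 2.12, 2.57 and 1.03 CPM in LPS larvae against 20.4, 31.3 and 43.1 CPM in controls at 24 × 24 °C, 1.74, 0.769 and 2.21 CPM against 19, 13.4 and 13.4 CPM at 24 × 32 °C, and 0.859, 2.96 and 1.7 CPM against 17.2, 66.5 and 51.5 CPM at 32 × 24 °C. The highest LPS library lay below the lowest control, and the mean effect was -3.91 ± 0.33 (adjusted p = 9.6e-06). The related muc5.1 had 6.01 to 14.6 CPM in LPS larvae (median 10.8) against 22.4 to 96.1 CPM in controls (median 45.8), and the membrane mucin gene muc13a fell as well (-1.77 ± 0.32). The summed level of the 21 matched genes of the list was 233.5 to 294.5 CPM in LPS larvae against 318.6 to 481.2 CPM in controls at 24 × 24 °C, but 267.7 to 318.9 CPM against 232.2 to 276.5 CPM at 24 × 32 °C, so the list as a whole did not follow its 3 mucins there. At 32 × 24 °C it was 214.3 to 327.8 CPM against 274.8 to 542.7 CPM, with overlap. Of the 14 genes, 6 fell without both libraries numbered 1 at 32 × 24 °C.

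A few transporter genes fell by large factors. slc14a2, a urea transporter gene, had 0 to 2.65 CPM in LPS larvae (median 0.371, with 3 libraries at 0) against 1.35 to 10.1 CPM in controls (median 2.53), and fell (-2.62 ± 0.41), on 17 counts in all LPS libraries against 131 in all controls. Thinned to the depth of the smallest library, its effect was -1.61 and its call was lost (adjusted p = 0.3). kcnj1a.2, a potassium channel gene of the ROMK type, fell too (-2.17 ± 0.35). rhcg, of the Rhesus ammonia transporters, had 1.41 to 17.2 CPM in LPS larvae (median 3.44) against 9.81 to 73.7 CPM in controls (median 19.3) and fell (-2.39 ± 0.33), with no overlap within a group. slc12a3, a sodium-chloride cotransporter gene, rose by 0.93 ± 0.21, while its effect at 32 × 24 °C was 0.15 ± 0.38. The list of 22 ionocyte and urea transport genes, which holds slc14a2, kcnj1a.2 and slc12a3, had 1 up, 2 down and a median of -0.026, and its summed level overlapped between LPS and control larvae in all 3 groups.

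Other large falls were in genes with no or little annotation. si:ch211-219a15.4 had 0 to 1.54 CPM in LPS larvae, with 5 of 9 libraries at 0, against 1.72 to 13.7 CPM in controls (median 6.7), on 7 counts in all LPS libraries against 224 in all controls. si:ch211-25g7.5, si:dkeyp-1h4.6 and plekhs1.1 fell, with mean effects of -3.41 ± 0.45, -2.99 ± 0.37 and -2.85 ± 0.37. enam, the gene of the enamel matrix protein enamelin, had 0.384 to 3.4 CPM in LPS larvae (median 0.581) against 1.49 to 14.1 CPM in controls (median 6.86) and fell (-2.28 ± 0.35).

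Of 26 fin fold, collagen and basement membrane genes, 0 rose and 6 fell, with a median of -0.35. In all 3 groups, 16 of the 26 were negative, against 16.4% of all genes. In these 26 genes, 1 rose and 7 fell without both libraries numbered 1 at 32 × 24 °C. and3 and and1 encode actinodins, which build the fibres of the larval fin fold. and3 had 9.26 to 44.2 CPM in LPS larvae (median 19.5) against 40.1 to 89.3 CPM in controls (median 58.2) and fell (-1.50 ± 0.25). and1 fell too (-1.06 ± 0.24), and its call was lost without LPS library 2 at 24 × 24 °C (adjusted p = 0.0501) or LPS library 2 at 32 × 24 °C (adjusted p = 0.0594). col7a1, the gene of the collagen that anchors the epidermis, fell as well (-0.99 ± 0.16).

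Leukocyte genes showed no common shift. Of 17 neutrophil genes, 3 rose and 1 fell, with a median of 0.06, and of 16 macrophage genes 1 rose and 1 fell, with a median of 0.055. Their summed levels overlapped between LPS and control larvae in all 3 groups for neutrophil genes (379.4 to 600.5 CPM with LPS against 496 to 589.3 CPM in controls at 24 × 24 °C), and for macrophage genes at 24 × 24 and 32 × 24 °C but not at 24 × 32 °C (329 to 467 CPM against 250.6 to 299.5 CPM). Beside scpp8, the neutrophil genes called were srgn, the gene of a granule proteoglycan, which rose by 1.06 ± 0.25, and cyba, an NADPH oxidase gene, which rose by 0.59 ± 0.15 on average. The cyba effects were -0.17, 1.24 and 0.71 in the 3 groups. Without the 24 × 32 °C larvae its mean was 0.28 (adjusted p = 0.742). The cyba call was lost in 11 of 18 fits that left out 1 library, and the srgn call in 4, namely without control library 1 at 24 × 24 °C, control libraries 1 or 2 or LPS library 3 at 24 × 32 °C (adjusted p = 0.0501 to 0.0577). lyz, the lysozyme gene, fell (-1.16 ± 0.21, adjusted p = 0.0043). It had 27.1, 21.9 and 23.1 CPM in LPS larvae against 68.7, 68.4 and 51.8 CPM in controls at 24 × 24 °C. At 24 × 32 °C it had 7.55, 12.3 and 14.1 CPM against 11.9, 23.8 and 34.1 CPM, with overlap. At 32 × 24 °C it had 13.7, 22.6 and 23.8 CPM against 22.1, 55.5 and 55.1 CPM, again with overlap. Without the 24 × 24 °C larvae the lyz mean was -1.04 and its call was lost (adjusted p = 0.148). The 2 macrophage calls, the cathepsin gene ctss2.1 (1.14 ± 0.31) and the perforin-like gene mpeg1.2 (-1.72 ± 0.42), were lost in 13 and 16 of the 18 fits that left out 1 library, with adjusted p up to 0.128 and 0.0899. Of 17 macrophage genes, 0 rose and 3 fell without both libraries numbered 1 at 32 × 24 °C.

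The liver and stress lists had 0 or 1 call each with edgeR, except the hypoxia, glucocorticoid and fasting list. Among all genes 1.7% rose and 0.814% fell, so 0 or 1 call does not set a short list apart. Of 33 acute-phase and complement genes, 26 had a positive mean effect and 10 an unadjusted p under 0.05. edgeR called only the complement gene c4b, while DESeq2 called 1 gene and limma-voom 3. c4b rose by 2.01 ± 0.41 (adjusted p = 0.011), while the list median was 0.34 and stood at 0.0072 at 24 × 24 °C, 0.60 at 24 × 32 °C and 0.64 at 32 × 24 °C. Without both libraries numbered 1 at 32 × 24 °C, 3 of 34 acute-phase and complement genes rose. Of 26 hepatocyte genes, only pah, the gene of phenylalanine hydroxylase, was called, which fell (-0.86 ± 0.12) without overlap in any of the 3 groups. Of 22 heat shock genes, hsp90aa1.1 alone was called, with a fall (-1.04 ± 0.26) whose call was lost in 14 of 18 fits that left out 1 library. edgeR called 0 of 27 genes of caspases and apoptosis, where 7 had an unadjusted p under 0.05, DESeq2 called 2 and limma-voom 1. It called 0 of 31 genes of the endoplasmic reticulum stress response (4 with unadjusted p under 0.05, and 0 called by both other tools). The medians of that list were -0.0625 at 24 × 24 °C, 0.57 at 24 × 32 °C and -0.0727 at 32 × 24 °C. For DNA replication and the cell cycle, edgeR called 0 of 35 genes (2 with unadjusted p under 0.05, and 0 by both other tools). Of 32 antioxidant, 20 xenobiotic response and 6 interferon-stimulated genes, edgeR again called 0 each, with 5, 3 and 3 at an unadjusted p under 0.05, while DESeq2 called 1, 1 and 0 and limma-voom 2, 1 and 1. Without both libraries numbered 1 at 32 × 24 °C, edgeR called 0 heat shock genes, 2 antioxidant genes and 1 interferon-stimulated gene up, 1 xenobiotic response gene up and 1 down, 1 gene of the endoplasmic reticulum stress response up, and 2 hepatocyte genes up and 2 down. Among 34 genes of hypoxia, glucocorticoids and fasting, 4 rose and 2 fell. Those that fell were the gluconeogenesis gene fbp1a (-0.69 ± 0.13) and the thioredoxin inhibitor gene txnipb (-0.70 ± 0.13), and neither fell evenly. fbp1a had effects of -1.27, -0.44 and -0.36 in the 3 groups, and without the 24 × 24 °C larvae its mean was -0.38 (adjusted p = 0.435). txnipb had an effect of 0.29 ± 0.24 at 32 × 24 °C, and its call was lost in the additive fit (adjusted p = 0.112) and without the 24 × 24 °C (adjusted p = 0.146) or 24 × 32 °C larvae (adjusted p = 0.625).

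Some mean effects rested mostly on the 24 × 32 °C larvae. Of 28 cholesterol synthesis genes, 5 rose and 0 fell, but none of the 5 was past 1.5-fold in all 3 groups, and the list medians were 0.0085 at 24 × 24 °C, 0.99 at 24 × 32 °C and 0.46 at 32 × 24 °C. Of 29 such genes, 8 rose without both libraries numbered 1 at 32 × 24 °C. ldlrb, an LDL receptor gene, had 31.7, 44.3 and 29.8 CPM in LPS larvae against 27.3, 18.9 and 31.5 CPM in controls at 24 × 24 °C, and 48.2, 29.6 and 52 CPM against 14.2, 8.44 and 6.23 CPM at 24 × 32 °C. Its mean effect was 1.03 ± 0.20, and without the 24 × 32 °C larvae it was 0.48 (adjusted p = 0.557). The sterol enzyme genes ebp and hsd17b7 had effects of 2.0 and 1.92 at 24 × 32 °C against -0.03 and 0.19 at 24 × 24 °C. Of 25 clock genes, 10 had an unadjusted p under 0.05. In all 3 groups, 11 were negative and 0 positive, against 16.4% and 16.6% of all genes. The 1 call among them, the photolyase-family gene cry5, fell at 24 × 24 °C as well as at 24 × 32 °C. Its mean effect was -0.61 ± 0.12, with effects of -0.79, -1.12 and 0.08 in the 3 groups. The cry5 mean dropped under 1.5-fold without any 1 of 4 libraries (-0.55 to -0.57). These were the controls numbered 1 of the 3 groups and LPS library 2 at 32 × 24 °C. The mean was also under 1.5-fold with limma-voom (-0.54) and in the additive fit (-0.55). The cry5 call was lost too without the 24 × 24 °C (adjusted p = 0.231) or the 24 × 32 °C larvae (adjusted p = 0.431).

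Lists of tissues away from the skin had 0 or 1 call each with edgeR. As 1.7% of all genes rose and 0.814% fell, such counts do not set these short lists apart. edgeR, DESeq2 and limma-voom each called 0 of 17 pancreatic, 10 heart, 9 erythroid and 21 lens genes, of which 0, 3, 0 and 2 had an unadjusted edgeR p under 0.05. Of 22 photoreceptor genes, edgeR called 0, with 11 at an unadjusted p under 0.05, and DESeq2 and limma-voom called 1 each. Of 28 skeletal muscle genes, edgeR called 1. This was mustn1b, a gene of muscle growth and repair, which rose by 0.94 ± 0.23 and lost its call without LPS library 2 at 24 × 24 °C or LPS libraries 2 or 3 at 32 × 24 °C (adjusted p = 0.0528 to 0.0693). In skeletal muscle, 2 genes rose and 1 fell without both libraries numbered 1 at 32 × 24 °C. The list medians lay between -0.35 in heart genes and 0.029 in pancreatic genes. Lens and photoreceptor genes leaned downwards by small steps, as only 1 of 21 and 4 of 22 had a positive mean effect. Their medians were -0.22 and -0.24. In all 3 groups, 9 lens and 12 photoreceptor genes were negative, and 0 and 2 positive. Of all genes, 16.4% were negative and 16.6% positive in all 3 groups. At 24 × 32 °C the summed levels of 3 lists were lower in LPS larvae without overlap, namely photoreceptor genes (3541 to 4217 CPM against 4649 to 5777 CPM in controls), lens genes (12370 to 18970 CPM against 20980 to 24600 CPM) and skeletal muscle genes (130100 to 135900 CPM against 143000 to 171900 CPM). Erythroid genes were lower with LPS at 24 × 24 °C (385.3 to 495.4 CPM against 501.3 to 656.1 CPM in controls). In the other temperature groups the sums of these 4 lists overlapped, and their part in the results above was not tested.

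**Figure D5:**
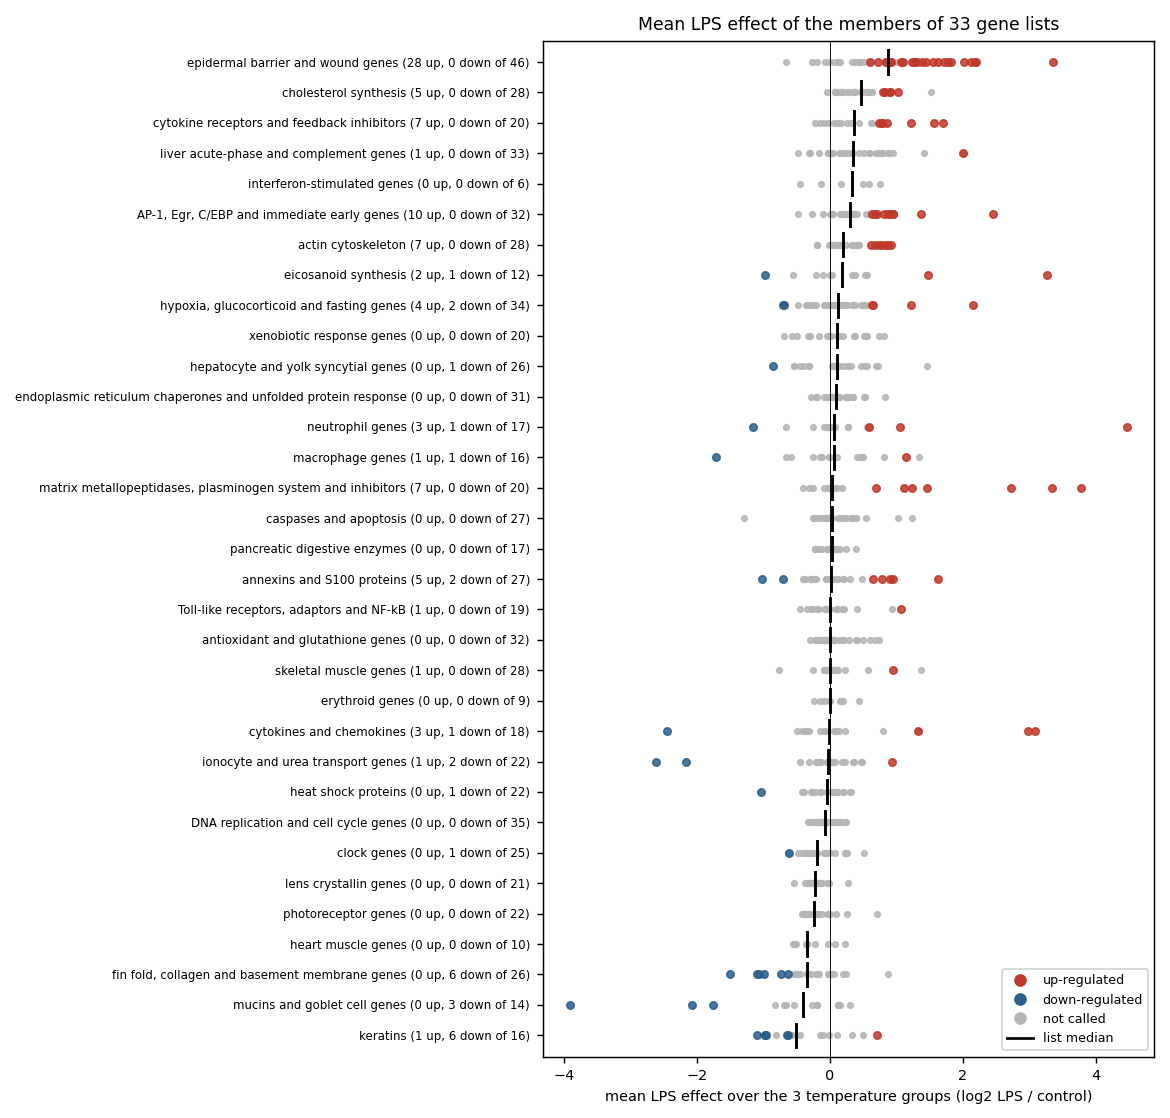
Each row is 1 of 33 gene lists, ordered by median, and each point 1 tested member placed by its mean LPS effect over the 3 temperature groups (log2 LPS over control), red for up-regulated, blue for down-regulated and grey for not called, with a black bar at the list median. The epidermal barrier and wound list stands highest, with a median of 0.88 and 28 of 46 genes up, and keratins lowest, with a median of -0.51 and 6 of 16 genes down.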

How the data were processed

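Whole-larva mRNA of 18 pools was sequenced. The authors used bcl2fastq2, FastQC 0.11.5, cutadapt 1.12 for trimming, TopHat2 2.1.0 with the GRCz10 genome, and HTSeq 0.6.1p1, whose raw gene counts they deposited unscaled. The strand setting was not given in the sources used here, so overlapping antisense genes are uncertain, as are close paralogs.

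Counts were fitted in R 4.3.3 with edgeR 4.0.16 (filterByExpr over the 6 groups, minimum count 10 and minimum total count 15, TMM, robust quasi-likelihood on 6 group means, common biological coefficient of variation 0.176). The contrast was the mean of the 3 LPS effects, and log2 CPM used a prior count of 2. Fitted effects used the default prior count of edgeR instead. Depth was 1868228 to 8261920 counts per library, which limits genes under about 1 CPM. The fit was tested on simulated data in which each gene was drawn independently. That test held no shifts shared by many genes of a library, so it does not cover the libraries that stood apart.

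Names came from a gene table for 25507 genes and from the study's supplementary tables for 708, and 5409 had none. Symbols in capitals are those of the gene table. Of 1146 memberships of the 33 lists, 206 were not matched. Members and lists were chosen with earlier results of these data known. The genes named were the 12 largest changes in each direction with at least 1 CPM, up to 4 called members of each list, up to 20 consistent genes per direction, and anxa2a, s100a10b and lye. tgm1, elovl1a, cldnb, epgn, hbegfa, cdh1, il6st, socs3b, junba, actb1 and krt18a.1 were named after their values were seen, and not every gene that meets the rule is described, as some items are not reported here. Alternatives were DESeq2 1.42.0 size factors and test, limma 3.58.1 voom with quality weights, no filter, an additive fit, a replicate block, thinning to the smallest library, no fold threshold, and fits without 1 library or 1 temperature group. A fit leaving out both libraries numbered 1 at 32 × 24 °C was added after seeing the data.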

Additional observations from a re-analysis of the deposited data

How the results depend on the processing

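The mean effects of all 78 genes named above kept their direction under all alternatives in which they were measured. Leaving out 1 library gave 208 to 393 up-regulated and 101 to 176 down-regulated genes, 82 to 167 and 50 to 88 consistent ones, and 0 to 4 genes whose effects differed among groups. The lowest consistent count, 82, and the 4 genes both came without LPS library 2 at 32 × 24 °C. Without both libraries numbered 1 at 32 × 24 °C, 195 genes were down-regulated and the effects of 19 differed. The test of differing effects called 5 genes without the filter, 38 with DESeq2 and 16 with limma-voom. DESeq2 called 323 genes up, 266 of them among the 267, and 142 down, 126 of them among the 128. With no fold threshold, 199 genes were down-regulated, and 378 and 190 had the same direction in all 3 groups.

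Fits of 12 libraries have fewer samples, and of the 78 genes 24 lost their call without the 24 × 24 °C larvae, 28 without the 24 × 32 °C larvae and 5 without the 32 × 24 °C larvae. The additive fit lost 7, thinning 6, no filter 5, limma-voom 2 and the replicate block 1. Without the 24 × 24 °C larvae, 121 genes rose and 34 fell, 89 and 28 of them past 1.5-fold in both groups. Without the 24 × 32 °C larvae, 89 rose and 47 fell, 79 and 43 past 1.5-fold in both. Without the 32 × 24 °C larvae, 362 rose and 164 fell, 186 and 112 past 1.5-fold in both, which is more than from all 18 libraries.

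With the replicate number as a block, 287 genes rose and 129 fell, 138 and 63 consistently, and 0 differed among groups. Libraries of the same number deviated together with a median r of 0.018 over 45 pairs (-0.235 to 0.559), against -0.014 over 90 other pairs. For LPS and control libraries of one temperature group the median r was 0.16 over 9 pairs of the same number (-0.1 to 0.559), against -0.0083 over 18 pairs of other numbers. As not every pair deviated together and no source ties the numbers to repeats, the numbers were not taken as pairs. Genes under about 1 CPM rest on few counts.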
